A study of Mus musculus with 8 samples.

Results

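Replication-dependent histone genes encode the core histones H2A, H2B, H3 and H4 and the linker histone H1 that package newly made DNA. They were taken from the deposited gene table by name, as the older Hist1h to Hist4h symbols or the newer H1f, H2ac, H2bc, H3c and H4c symbols, if they had at least 10 counts in 2 or more libraries. Of 55401 genes, 70 carried such a name and 64 met the count minimum, made up of 9 H1, 17 H2A, 15 H2B, 11 H3 and 12 H4 genes. Members were thus chosen by name and by their raw counts, without group labels, under a rule set with earlier results of these data known. In 59 of the 64, at least 2 libraries of each group held 10 counts or more. H4c6 was the gene just inside, with 12 counts in control 2 and 10 in Nynrin CKO 3. Hist1h2al was just outside, with 10 counts in a single library. In mm10, 52 of the 64 genes lie on chromosome 13, 8 on chromosome 3, 2 on chromosome 15 and 2 on chromosome 6. The label holds for 60 of the 64: H1f0, H1f7, H1f8 and H1f10 share the naming scheme but are linker histone genes outside the replication-dependent clusters. H1f0 encodes a replacement linker histone made outside S phase in slowly dividing and differentiated cells, and H1f7 and H1f8 are known from testis and oocyte. H2ac14 is an unprocessed pseudogene in the deposited table.

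RNA came from haematopoietic stem cells (HSCs), the self-renewing cells at the root of all blood lineages, sorted from bone marrow of C57BL/6 mice of 8 weeks at about 3000 cells per sample. The 4 control libraries came from Nynrinfl/fl mice, which have the floxed alleles but no Cre, under the genotype label wild type. The 4 Nynrin CKO libraries came from Nynrinfl/fl mice with Tie2-Cre, a recombinase driven by a promoter used by endothelial and blood cells. Cre was present in 1 group only, so its own effect and that of Nynrin loss cannot be told apart. Whether each library came from a separate mouse is not stated, so the p-values rest on the spread among 8 libraries and part of it may be technical. In bulk RNA, fewer cells of a type and less RNA per cell cannot be told apart.

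Replication-dependent histone genes are transcribed in S phase, from clusters in which many H2A and H2B genes stand head to head and share a promoter region. Their mRNAs as a rule end in a stem-loop instead of a poly(A) tail. The stem-loop is bound by SLBP, which acts in 3′ end processing, translation and decay of these mRNAs. A minority of transcripts is read past the stem-loop and polyadenylated, and in quiescent or differentiating cells such forms can make up more of the histone mRNA. HSCs are mostly quiescent.

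The stem-loop was looked for first, because it is the element that sets these mRNAs apart from nearly all others. In GENCODE M21 transcripts of the same build, a pattern of 16 bases, reading GG, any 3, TTT, any 2, A, any 3 and CC, was found on the sense strand of the 3′ UTR in 40 of the 64 genes. A further 13 had no annotated 3′ UTR, and 11 had a 3′ UTR without it, H1f0 among them. Over all genes the pattern occurred in 2.72% of 21193 longest 3′ UTRs, and in 0.161% of 3′ UTRs of 16 to 200 bases whose genes are not named Hist. A match is a description of the letters and no measure of use. The 6 forms found are shown here with 5 bases on each side, capitals marking the stem and loop and each gene standing for its form.
Hist1h2ao: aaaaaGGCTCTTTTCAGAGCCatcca
H2ac20: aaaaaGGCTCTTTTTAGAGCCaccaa
H3c6: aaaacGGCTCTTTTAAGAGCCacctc
H4c4: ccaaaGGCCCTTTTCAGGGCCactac
H4c9: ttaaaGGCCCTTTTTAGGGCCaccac
H4c11: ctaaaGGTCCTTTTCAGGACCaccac
The form of Hist1h2ao was the commonest, in 24 genes of the classes H1, H2A, H2B and H3. That of H3c6 occurred in 5 genes, and that of H2ac20 in H2ac20 only. The 10 H4 genes with a stem-loop used the forms of H4c4 (6 genes), H4c9 (2) and H4c11 (2), which occurred in no other class. In 22 of the 40 genes the annotated transcript ended within 100 bases of the stem-loop, and in 18 it ran on for 100 bases or more.

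The libraries had 36942835 to 56437299 counts, of which the 64 genes took 0.0690% to 0.162%. They did not fall apart by group alone. Control 4 and Nynrin CKO 3 and 4 had 28914 to 31344 genes with a count, and 177 to 216 CPM (counts relative to library size, scaled by TMM factors) in sum on olfactory and vomeronasal receptor genes, which have no known role in blood. The other 5 libraries had 40240 to 44562 genes with a count and 873 to 1449 CPM on receptor genes. Nynrin CKO 1 and 2 were close copies of each other (coefficient of variation between libraries 0.245), as were 3 and 4 (0.246), against 0.831 to 0.849 between these pairs and 0.327 to 0.857 between controls. Xist, which marks female cells, was high in controls 3 and 4, with 177719 and 224087 counts, and had 245 to 471 elsewhere. Nynrin itself measured 41.3, 47.5, 30.1 and 30.4 CPM in controls 1 to 4, against 12.7, 12.3, 8.24 and 8.22 CPM in Nynrin CKO 1 to 4, and it fell (log2 fold change -1.85, SE 0.22, edgeR adjusted p = 0.0345). Per kilobase of exon, 57 of the 64 histone genes exceeded the median receptor gene of the same library in all 8 libraries, and 41 exceeded its 90th percentile.

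Among the 62 members tested, H1f0 alone changed between the groups in the edgeR test, and it rose. None of the 58 tested members of the replication-dependent clusters passed, and H1f0 lies outside these clusters. Its level was 173, 175, 119.7 and 178 CPM in controls 1 to 4, against 282, 298, 410 and 394 CPM in Nynrin CKO 1 to 4. Every Nynrin CKO library thus lay above every control. Mean levels were 162 ± 27.9 CPM for controls and 346 ± 65.4 CPM for Nynrin CKO (SD, n = 4 each), 2.14 times as high. On the log2 scale the difference was 1.10 (SE 0.18; edgeR quasi-likelihood test, adjusted p = 0.0379 over 27573 genes; two-sided p = 0.0286 by exact permutation, the lowest that 4 against 4 libraries allow). H1f0 (ENSMUSG00000096210) is a plus-strand gene of chromosome 15, from 79028450 to 79030504. The adjusted p was 0.0262 without control 4, where 1129 of 30260 genes were called higher and 243 lower. It was 0.0545 to 0.144 when any other single library was left out, with at most 6 genes called higher and 4 lower. Within the 5 libraries with more receptor reads the log2 fold change was 0.89 (adjusted p = 0.0241, with 6.69% of genes called), and with a term for the library set it was 0.99 (adjusted p = 0.0118, with 5.91% called). The call was lost with RLE factors (adjusted p = 0.0551), with a minimum of 10 counts in 2 libraries as the filter (0.0573) and with the close pairs of Nynrin CKO libraries each summed (0.437). Those fits called few genes of any kind. In the same order, they called 13 higher and 22 lower of 27573, 17 and 34 of 33860, and 0 of 32849. Some markers of other blood cells passed the test, all higher, beside the 2.22% of all genes called higher. They were 2 of 6 monocyte and macrophage genes, 2 of 5 erythroid and 1 of 4 T and NK cell genes. Mast cell and basophil genes added 1 of 3, and neutrophil and granule precursor genes 1 of 8. None of 5 B cell, 4 endothelial and 9 HSC genes passed. Erythroid genes summed to 77.4 to 100.4 CPM in controls. They summed to 229 and 238 CPM in Nynrin CKO 1 and 2 and to 126 and 124 CPM in 3 and 4, where H1f0 was highest. The part of these markers in the H1f0 result was not tested.

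Of the 64 genes, 62 passed the filter on low counts and 61 of these did not pass the test. The share called was 1 of 62, and 2.80% of all genes tested were called (2.22% higher and 0.588% lower). H1f0 was also the only member whose groups did not overlap, a state reached by 14.3% of all genes tested (9.52% with Nynrin CKO above, 4.83% below). At an unadjusted p under 0.05 there were 6 members, all higher in Nynrin CKO, beside 18.9% of all genes (13.2% higher, 5.78% lower). These were H1f0, the H2A genes Hist1h2ao, Hist1h2ap, H2ac13 and H2ac14, and the H3 gene H3c14. The median log2 fold change over the 62 was 0.32, against -0.09 over all genes tested, and 44 of the 62 values were positive. With total counts, a scaling that lowered the values of all genes, it was -0.02 and the median of all genes -0.34. Within the 5 libraries with more receptor reads it was -0.22, against -0.11 over all genes. Without control 4 it was 0.70. Limma-voom and the newer quasi-likelihood form of edgeR passed H1f0 alone, where they called 7.71% and 4.03% of all genes. DESeq2, which called 12.8% of the genes it gave an adjusted p, passed H1f0, Hist1h2ao, H3c14 and H2ac19, the last with counts in 2 libraries only.

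**Figure D1:**
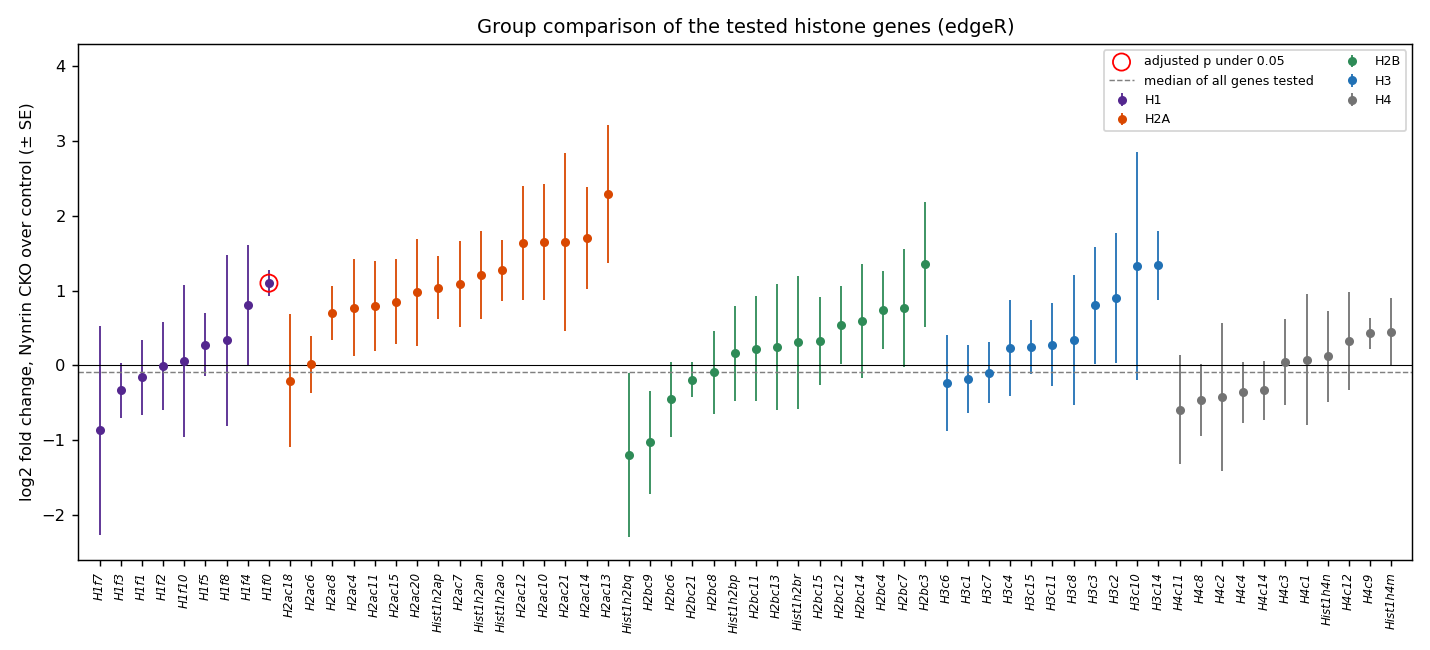
Log2 fold change of Nynrin CKO over control (vertical axis) for each of the 62 tested histone genes, ordered by class; bars are ± 1 standard error from edgeR, and the dashed line is the median of all genes tested, -0.09. H1f0 alone is circled as passing the test; H2A genes have mostly positive values with wide errors, and H4 values lie on both sides of 0.

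Among the H2A genes, whose product pairs with H2B on the outside of the nucleosome, the high libraries were Nynrin CKO 3 and 4 and not the group as a whole. Hist1h2ao, the most abundant histone gene per kilobase of exon (mean over 8 libraries 470 CPM per kilobase), measured 195, 94.3, 124 and 116 CPM in controls 1 to 4, against 183, 143, 460 and 491 CPM in Nynrin CKO 1 to 4. Nynrin CKO 1 and 2 fell inside the control range, and 3 and 4 lay far above it. Its log2 fold change was 1.27 (SE 0.41; adjusted p = 0.123 by edgeR; p = 0.0857 by exact permutation). Hist1h2ap, next in abundance, measured 89.5, 38.4, 53.0 and 49.1 CPM in controls, against 60.8, 59.4, 168 and 184 CPM in Nynrin CKO, with the same 2 libraries on top (log2 fold change 1.04, SE 0.42, edgeR adjusted p = 0.215). These 2 genes share about 93% of their 50-base stretches, so reads can pass from one to the other. H2ac8 was lower, at 14.9 to 32.8 CPM in controls, then 22.8 and 20.6 CPM in Nynrin CKO 1 and 2, and 50.04 and 52.8 CPM in 3 and 4.

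H2ac13 had the largest log2 fold change of the tested members and was singled out after its values were seen. It measured 4.76, 4.78, 2.98 and 2.83 CPM in controls, against 1.42, 2.60, 43.5 and 28.0 CPM in Nynrin CKO. Nynrin CKO 1 and 2 were thus below all controls and 3 and 4 above them all. Its log2 fold change was 2.30 (SE 0.92, adjusted p = 0.213 by edgeR), and it was -1.06 within the 5 libraries with more receptor reads. H2ac14, the pseudogene, stayed at 0.399 to 0.700 CPM in the 6 other libraries and reached 2.27 and 3.03 CPM in Nynrin CKO 3 and 4. Of its 50-base stretches 93.1% occur in H2ac13, and 84.0% of those of H2ac13 occur in H2ac7, so reads can pass between these genes and the values may not be separate measurements.

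Among the H2A genes, H2ac18 and H2ac19 were left out of the next counts. H2ac18 had 26 counts in Nynrin CKO 3 and 259 to 1535 in the other 7 libraries, whereas H2ac19 had 396 and 414 counts in Nynrin CKO 3 and 4 and 0 in the other 6, so that it met the count minimum through these 2 libraries alone. Every 50-base stretch of H2ac19 also occurs in H2ac18, so how their reads were divided is uncertain. In 14 of the 15 other H2A genes both Nynrin CKO 3 and 4 lay above all 6 other libraries, as they did in 28 of the 62 members counted this way and in 16.1% of all genes tested. With total counts in place of TMM factors it was 13 of the 15, beside 5.10% of all genes tested. H2ac21, among the 14, had at least 10 counts in 1 control and in 3 Nynrin CKO libraries. The controls alone would thus not have brought it in, and it is also counted in the fitted values that follow. The fitted log2 fold change was positive in 15 of the 16 H2A genes tested, with a median of 1.06 (0.70 with total counts), but within the 5 libraries with more receptor reads the median was -0.26 and 4 of 16 were positive. The gene of the 15 without the high pair was H2ac6, which was highest in control 4, at 48.7 CPM, beside 39.1 and 38.9 CPM in Nynrin CKO 3 and 4. Summed over the H2A genes, controls had 295 ± 88.6 CPM and Nynrin CKO 609 ± 362 CPM (SD, n = 4 each), and the second mean joins 318 and 277 CPM in libraries 1 and 2 with 878 and 964 CPM in 3 and 4. Another record overlaps each of the 17 H2A genes, mostly on the opposite strand, and in 13 of the 17 it holds under 10% of the gene's own counts. The strand setting is not given, so such reads cannot be told apart.

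**Figure D2:**
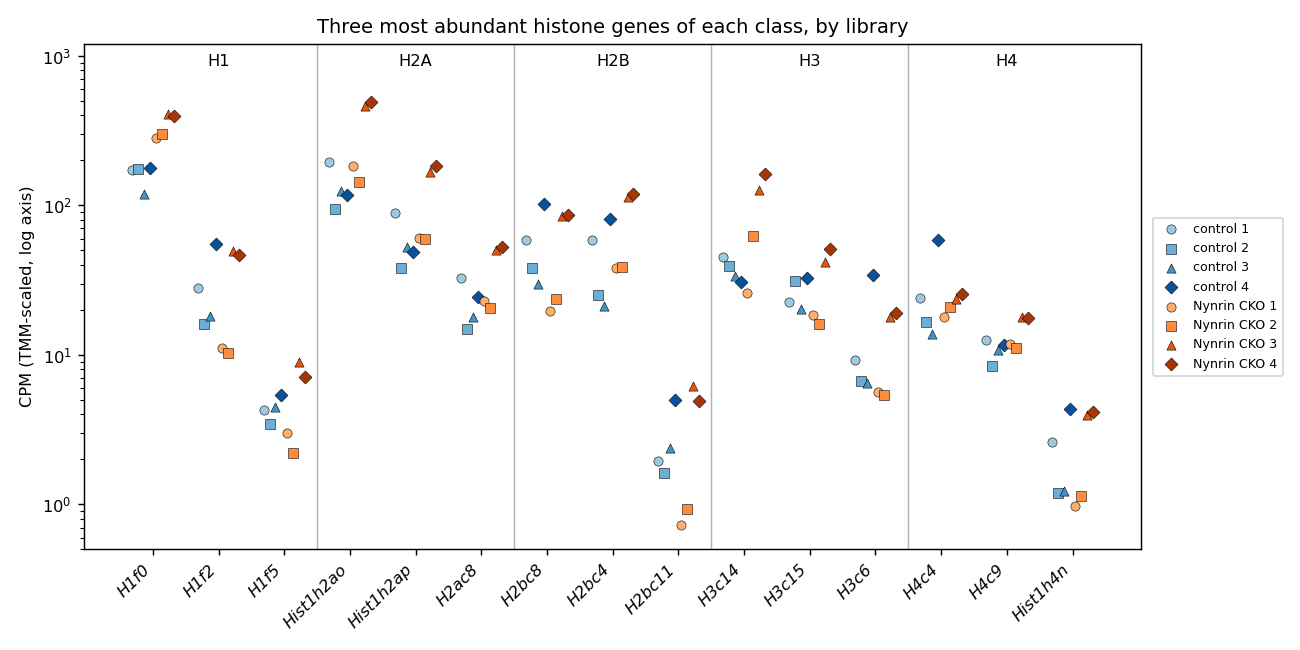
CPM on a log axis (vertical) of the 3 genes of each class with the highest mean CPM per kilobase, 1 point per library, blue for control 1 to 4 and orange for Nynrin CKO 1 to 4. The H2A genes are high in Nynrin CKO 3 and 4 only, control 4 stands high in H2bc8, H3c6 and H4c4, and H1f0 separates the groups.

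In the libraries with the high H2A counts, markers of maturing blood cells were high as well. The summed level of 8 neutrophil and granule precursor genes was 202 to 327 CPM in controls, then 439 and 488 CPM in Nynrin CKO 1 and 2, and 3974 and 4016 CPM in 3 and 4, with Mpo, the granule enzyme myeloperoxidase, at 60.7 to 101 CPM in controls, against 2829 and 2824 CPM in Nynrin CKO 3 and 4. Of these 8 genes 1 passed the test, higher, and none was at 0 in any control. The 5 B cell genes summed to 73.4 to 124 CPM in controls, then 111 and 104 CPM in Nynrin CKO 1 and 2, and 1099.7 and 1107 CPM in 3 and 4, with Ighm the main contributor. None of the 5 passed the test, and Cd79a was at 0 in control 4. The 9 HSC genes summed to 2739 to 3651 CPM in controls, against 3160.4 to 3769.5 CPM in Nynrin CKO, so the labelled cell type's markers were present in all 8 libraries. Mitochondrially encoded genes took 9.90% and 9.86% of counts in Nynrin CKO 3 and 4 and 5.98% to 7.44% in the other 6 libraries. The part of these other cells and of the mitochondrial share in the histone counts was not tested.

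H2B genes gave another order of libraries, with control 4 beside Nynrin CKO 3 and 4 at the top. H2bc8 measured 59.0, 38.1, 29.7 and 101 CPM in controls, against 19.6, 23.5, 84.7 and 86.1 CPM in Nynrin CKO. H2bc4 measured 58.3, 25.3, 21.2 and 80.6 CPM in controls, against 38.4, 38.7, 113 and 119 CPM in Nynrin CKO. In both genes the groups overlapped, although Nynrin CKO 1 and 2 lay below every control in H2bc8 and 3 and 4 above every control in H2bc4. The log2 fold changes were -0.09 (SE 0.55) and 0.74 (SE 0.52). H2bc11 was scarcer, at 1.62 to 4.97 CPM in controls, then 0.731 and 0.929 CPM in Nynrin CKO 1 and 2, and 6.19 and 4.93 CPM in 3 and 4. H2bc9 had the smallest p among members with a negative value (log2 fold change -1.03, SE 0.69, edgeR adjusted p = 0.505), with 2.25, 0.714, 0.869 and 4.51 CPM in controls, against 0.355, 0.702, 1.59 and 1.44 CPM in Nynrin CKO. Hist1h2bq stood at 16.1 CPM in control 4 and at 0.446 to 2.81 CPM in the other 7 libraries. Leaving out control 4 turned its log2 fold change from -1.21 to 1.84, and it shares 97.3% of its 50-base stretches with Hist1h2br and others. Over the 15 H2B genes, log2 fold changes ran from -1.21 to 1.35 with a median of 0.25. That median was 0.70 without control 4, -0.03 without Nynrin CKO 3, -0.0015 without Nynrin CKO 4 and 0.06 and 0.08 without controls 2 and 3. It was -0.10 with total counts. Summed H2B levels were 143 ± 82.4 CPM in controls, against 167 ± 90.6 CPM in Nynrin CKO (SD, n = 4 each).

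The 12 H2A and H2B pairs that stand head to head, 175 to 301 bases apart, put both classes side by side at the same loci. With control 4 as the base, the H2A gene of a pair was higher in Nynrin CKO 3 and 4 by a median log2 ratio of 1.73 (CPM + 0.5), and the H2B gene by 0.11. The H2A value was the larger in 11 of the 12 pairs, the exception being H2ac6 with H2bc4. With Nynrin CKO 1 and 2 as the base the medians were 1.67 for H2A and 0.76 for H2B, the H2A value was the larger in 8 of the 12, and 11 of the 12 H2B genes were higher as well. The difference between the classes was thus greater against control 4, in which 14 of the 15 H2B genes were above their mean in controls 1 to 3. Between Nynrin CKO 1 and 2 and controls 1 to 3, the medians were -0.18 for H2A and -0.04 for H2B, and the H2A value was the larger in 4 of the 12. The fitted log2 fold changes had medians of 1.06 and 0.28. Of the H2A genes in the pairs, H2ac6 shared 14.1% of its 50-base stretches with other genes and the rest 38.6% to 93.5%. The pairs may thus not be separate measurements. These pairs were compared after the values had been seen, by a base that is a single library, and no test is given.

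**Figure D3:**
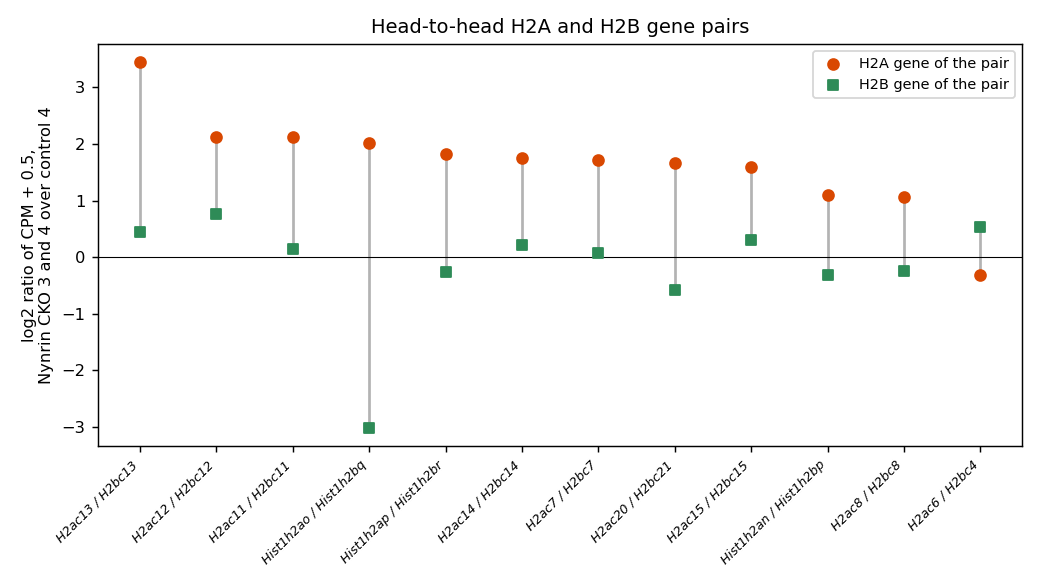
Log2 ratio of CPM + 0.5 between the mean of Nynrin CKO 3 and 4 and control 4 (vertical axis) for the H2A gene (circle) and the H2B gene (square) of each of the 12 head-to-head pairs, joined by a line. The circle lies above the square in 11 pairs, and the square of Hist1h2bq is far below 0, where that gene was high in control 4.

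The promoter window of the H2A gene with the largest ratio among the pairs is shown because its H2B partner starts within it. The 250 bases before the RefSeq start of H2ac13 (GRCm38.p6, chr13:21716162-21716411, plus strand) read as follows, with capitals marking each match to the motifs searched, and the RefSeq start of H2bc13, on the other strand, lies near the beginning of the window, so the first bases belong to the H2bc13 transcript. The corresponding 250 bases of H1f0 (chr15:79027962-79028211, plus strand) held none of them. That window lies before the RefSeq start, and the deposited table has H1f0 start further on, at 79028450.
H2ac13: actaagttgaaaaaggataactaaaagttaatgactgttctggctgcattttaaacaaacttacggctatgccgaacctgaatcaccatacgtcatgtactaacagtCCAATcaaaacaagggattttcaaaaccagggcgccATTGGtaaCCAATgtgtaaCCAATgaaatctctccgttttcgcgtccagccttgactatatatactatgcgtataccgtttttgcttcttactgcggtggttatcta
H1f0: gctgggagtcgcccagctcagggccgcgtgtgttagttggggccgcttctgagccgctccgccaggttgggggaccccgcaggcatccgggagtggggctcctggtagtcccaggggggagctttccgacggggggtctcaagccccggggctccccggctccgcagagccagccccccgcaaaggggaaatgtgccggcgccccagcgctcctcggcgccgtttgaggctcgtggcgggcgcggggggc
The 4 motifs searched on both strands, in the 57 members with a RefSeq promoter, were the CCAAT box, the TATA box TATAAA, the octamer ATTTGCAT and TTTCGCGC, a form of the E2F site. CCAAT occurred in 16 of 16 H2A, 12 of 12 H2B, 7 of 9 H3, 6 of 9 H1 and 3 of 11 H4 promoters. It occurred in 33.8% of 32851 promoters of the same length. TATAAA occurred in 26 of the 57 and in 12.4% of all. The octamer occurred in 5 of 16 H2A and 4 of 12 H2B promoters, in no promoter of the other classes, and in 1.60% of all. TTTCGCGC occurred in 3 of 16 H2A and 4 of 12 H2B promoters, in none of the other classes, and in 0.256% of all. The H2A and H2B windows of a pair overlap, so their matches are partly the same bases. GC content was 39.6% in the H2ac13 window and 74.4% in that of H1f0, with a median of 52.4% over all promoters.

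H3 genes, whose product forms the core of the nucleosome with H4, held both orders of libraries, some led by Nynrin CKO 3 and 4 alone and others with control 4 beside them. H3c14, the most abundant per kilobase, measured 45.4, 39.5, 33.7 and 30.8 CPM in controls, against 25.9, 62.7, 126 and 162 CPM in Nynrin CKO. Nynrin CKO 1 was below all controls and the other 3 were above them all (log2 fold change 1.34, SE 0.46, adjusted p = 0.147 by edgeR; p = 0.171 by exact permutation). All of its 50-base stretches also occur in the overlapping record Gm20634. H3c15 measured 20.2 to 32.7 CPM in controls, then 18.4 and 16.02 CPM in Nynrin CKO 1 and 2, and 41.6 and 50.7 CPM in 3 and 4. H3c6 was highest in control 4, at 34.3 CPM, with 6.49 to 9.17 CPM in the other controls, 5.67 and 5.41 CPM in Nynrin CKO 1 and 2, and 17.9 and 19.2 CPM in 3 and 4. Nynrin CKO 1 and 2 lay below all 4 controls in 8 of the 11 H3 genes, in 20 of all 64 members and in 10.9% of all genes tested. Summed H3 level was 99.2 ± 26.5 CPM in controls, against 163 ± 101 CPM in Nynrin CKO (SD, n = 4 each).

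H4 genes had control 4 on top most often. H4c4, the most abundant per kilobase, measured 24.1, 16.5, 13.8 and 58.7 CPM in controls, against 17.8, 20.99, 23.6 and 25.7 CPM in Nynrin CKO. Control 4 alone stood apart, and the log2 fold change was -0.36 (SE 0.41). H4c9 measured 8.45 to 12.6 CPM in controls, then 11.9 and 11.1 CPM in Nynrin CKO 1 and 2, and 17.9 and 17.7 CPM in 3 and 4, with a log2 fold change of 0.43 (SE 0.21, edgeR adjusted p = 0.312). Hist1h4n measured 1.19 to 4.32 CPM in controls, against 0.975 to 4.16 CPM in Nynrin CKO, and H4c8 0.833 to 2.81 CPM and 0.826 to 1.498 CPM. Control 4 was the highest of the 8 libraries in 7 of the 12 H4 genes, in 20 of all 64 members and in 5.11% of all genes tested. The summed H4 level was 34.3 to 51.8 CPM in controls 1 to 3, 101 CPM in control 4, 39.3 and 44.0 CPM in Nynrin CKO 1 and 2, and 60.8 and 65.3 CPM in 3 and 4.

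**Figure D4:**
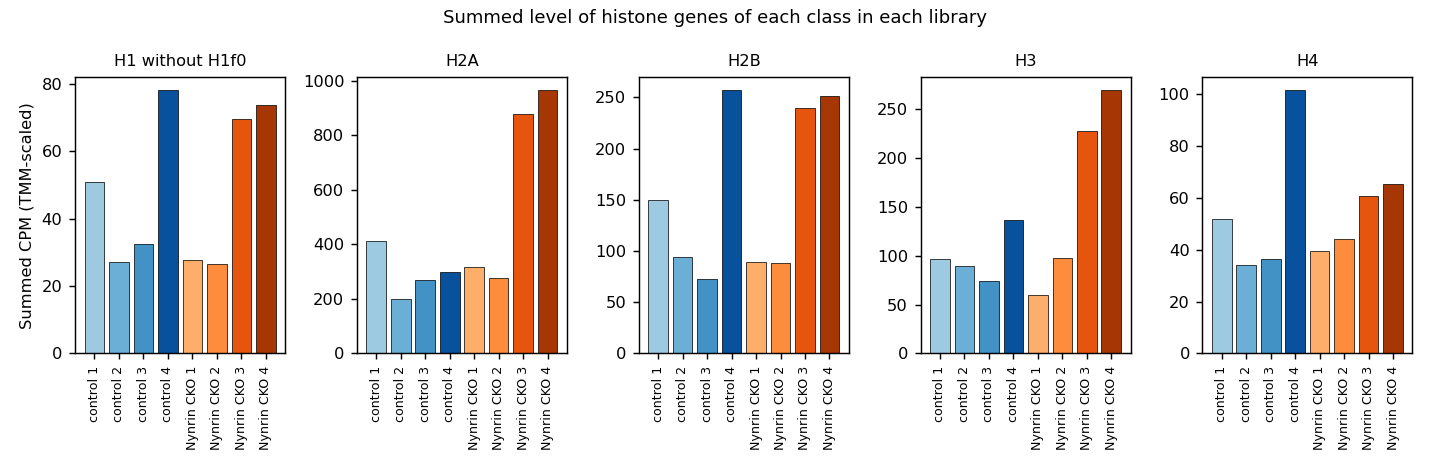
Summed CPM (vertical axis from 0, a separate scale per panel) of the H1 genes without H1f0 and of the H2A, H2B, H3 and H4 genes, 1 bar per library. Nynrin CKO 3 and 4 stand above all others in H2A and H3, whereas control 4 is at or above their level in H1, H2B and H4.

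The H1 genes of the clusters did not separate the groups as H1f0 did. H1f2, the most abundant of them per kilobase, measured 28.2, 16.2, 18.3 and 55.5 CPM in controls, against 11.2, 10.2, 49.6 and 46.8 CPM in Nynrin CKO (log2 fold change -0.01, SE 0.59). H1f5 measured 3.43 to 5.39 CPM in controls, then 2.99 and 2.21 CPM in Nynrin CKO 1 and 2, and 8.97 and 7.09 CPM in 3 and 4. H1f7, H1f8 and H1f10, outside the clusters like H1f0, had at most 0.628 CPM in any library. H1f4 overlaps H2bc6 on the same strand, so the reads of these 2 genes cannot be told apart.

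The annotated form of the transcript was set beside the level in control 4, as a description with no test. The median log2 ratio of control 4 over controls 1 to 3 was 1.25 in the 18 genes that run on and 0.41 in the 22 that end near the stem-loop, against -0.20 over all genes tested. With Nynrin CKO 3 and 4 over control 4, the medians were -0.41 and 0.49, against 0.04 over all genes. Class and form overlap, since 8 of the 10 H2A genes with a stem-loop end near it. Within classes, control 4 over controls 1 to 3 had medians of 0.63 (2 genes that run on) and -0.19 (8 that end near) in H2A, and of 1.27 (3) and 0.77 (6) in H2B. The corresponding medians were 1.25 (5) and 0.40 (3) in H3, and 1.49 (5) and 0.99 (5) in H4. RNAs that have no poly(A) tail, such as Rn7sk and small nucleolar RNAs, summed to 57.5 to 60.5 CPM in the 5 libraries with more receptor reads and to 67.0 to 70.5 CPM in control 4 and Nynrin CKO 3 and 4. Over the groups this sum did not differ beyond the spread (exact permutation p = 0.771). How the cDNA was primed is not stated in the labels, and its part in the histone counts was not tested.

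Histone variants outside the replication-dependent set, most of which have polyadenylated mRNAs, had positive log2 fold changes in all 10 genes listed, and 2 of them passed the test, both higher, beside the 2.22% of all genes called higher. H2az2, an H2A.Z gene, measured 112, 90.8, 83.3 and 108 CPM in controls, against 142, 154, 183 and 183 CPM in Nynrin CKO (log2 fold change 0.75, SE 0.14, edgeR adjusted p = 0.0396). H3f3b, which encodes the replacement histone H3.3, measured 963, 881, 851 and 1077 CPM in controls, against 1478, 1491, 2468 and 2532 CPM in Nynrin CKO (log2 fold change 1.08, SE 0.21, edgeR adjusted p = 0.0431). In both genes all 4 Nynrin CKO libraries lay above all controls. H2az1 was apart as well, at 328 to 534 CPM and 592 to 946 CPM, and missed the threshold (adjusted p = 0.0702). H3f3a overlapped between the groups, at 388 to 445 CPM in controls, against 376 to 730 CPM in Nynrin CKO. Macroh2a1, an H2A variant with a large extra domain, was high in Nynrin CKO 3 and 4 only, at 354 and 343 CPM beside 84.9 to 151 CPM in the other 6 libraries. The median log2 fold change of the 10 variants was 0.73, against -0.09 over all genes tested, and it was 0.40 with total counts.

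None of the 27 genes of histone mRNA transcription, processing and decay passed the test by edgeR, and 10 had an unadjusted p under 0.05 (9 higher, 1 lower), beside 18.9% of all genes. DESeq2 called 2 of the 27 and limma-voom 4, all higher, beside 7.99% and 5.91% of all genes called higher by these tools. Slbp, the stem-loop binding protein gene, came nearest. It measured 94.5, 108, 128 and 128 CPM in controls, against 158, 161, 237 and 235 CPM in Nynrin CKO, with no overlap of the groups (log2 fold change 0.79, SE 0.18, adjusted p = 0.0502 by edgeR; p = 0.0286 by exact permutation). Lsm1, a subunit of the ring that binds RNA ends in decay, measured 31.8 to 41.2 CPM and 44.8 to 49.2 CPM (log2 fold change 0.41, SE 0.11, adjusted p = 0.0692 by edgeR). The median over the 27 was 0.23, and -0.03 with total counts.

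Of 25 histone chaperone and assembly genes 2 rose and none fell by edgeR, beside 2.22% and 0.588% of all genes, with a median log2 fold change of 0.23 (-0.02 with total counts). DESeq2 called 4 of the 25 higher and 2 lower, beside 7.99% and 4.8% of all genes, and limma-voom 5 higher and 2 lower, beside 5.91% and 1.8%. Asf1a, a chaperone that hands H3 and H4 to the assembly factors, measured 49.1, 40.0, 47.8 and 51.6 CPM in controls, against 76.8, 81.0, 82.3 and 77.7 CPM in Nynrin CKO (log2 fold change 0.75, SE 0.10, edgeR adjusted p = 0.0345). Its relative Asf1b measured 49.9 to 59.1 CPM and 73.4 to 102 CPM (0.64, SE 0.13, edgeR adjusted p = 0.0436). Both were apart in all libraries, and unlike the H2A genes Asf1a was as high in Nynrin CKO 1 and 2 as in 3 and 4. Of 50 DNA replication genes 4 rose and none fell by edgeR, beside the same 2.22% and 0.588% of all genes. A positive log2 fold change was found in 45 of the 50, with a median of 0.32, and in 12281 of all 27573 genes. With total counts 27 of the 50 were positive. Rrm2, a subunit of the enzyme that makes deoxynucleotides, measured 53.4 to 74.3 CPM in controls, against 90.4 to 125 CPM in Nynrin CKO (0.76, SE 0.15, edgeR adjusted p = 0.0431). Ccne1, the cyclin of S-phase entry, measured 10.5 to 14.1 CPM and 18.2 to 20.4 CPM (0.70, SE 0.13, edgeR adjusted p = 0.0408). Rfc2, a clamp loader subunit (0.67, adjusted p = 0.0442), and Gins3, a part of the replicative helicase (0.48, adjusted p = 0.0453), were the other 2 by edgeR. The proliferation genes Mki67 (log2 fold change 0.32) and Top2a (0.04) did not pass. The 50 genes summed to 5433 to 6443 CPM in controls, then 6301 and 5982 CPM in Nynrin CKO 1 and 2, and 8176 and 8202 CPM in 3 and 4. Without control 4, 17 genes of the 4 lists were called higher, beside 1129 of all 30260 genes tested. The reported fit called 8 of them higher, beside 611 of all 27573 genes. Without any other single library no gene of the lists passed, and over all genes at most 6 were called higher and 4 lower.

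**Figure D5:**
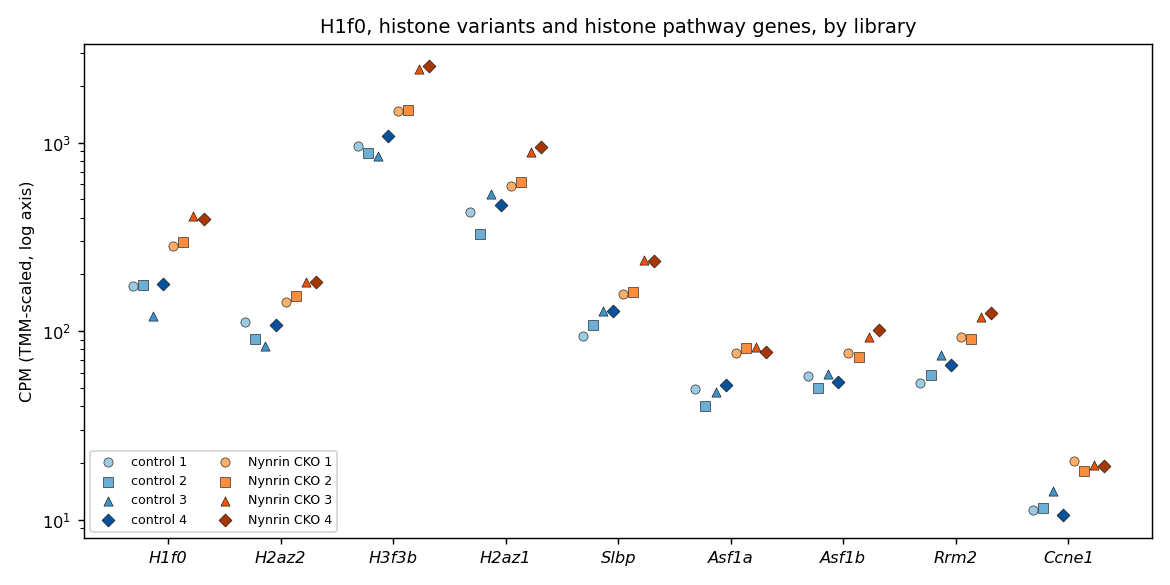
CPM on a log axis (vertical) of H1f0, of 3 histone variant genes, of Slbp, the chaperones Asf1a and Asf1b, and of the replication genes Rrm2 and Ccne1, 1 point per library, blue for control 1 to 4 and orange for Nynrin CKO 1 to 4. In each of these 9 genes, picked for display, all 4 Nynrin CKO libraries lie above all 4 controls. H2az1 and Slbp did not pass the test. The same order was found in 9.52% of all genes tested. It was found in 3 of 10 variants, 4 of 27 processing, 7 of 25 chaperone and 13 of 50 replication genes. H3f3a and Macroh2a1, whose groups overlapped, are not shown.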

How the data were processed

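Per the labels' protocols, RNA of about 3000 sorted HSCs per sample was extracted and its cDNA sequenced, in 4 control and 4 Nynrin CKO libraries. The authors deposited raw counts per gene, not normalized, per the file headers. The submitters' processing notes name mm10 as the build. Aligner, counter, strand setting and treatment of multiply matching reads were not given, so counts of near-identical histone genes are uncertain: in 31 of the 64, over 50% of 50-base stretches occur in another gene.

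All genes were fitted with edgeR 4.0.16 (R 4.3.3; filterByExpr, 27573 genes kept, TMM factors, robust quasi-likelihood F-test, Benjamini-Hochberg, threshold 0.05). Single values were compared by two-sided exact permutation of log2(CPM + 1) over 70 assignments. On simulated counts for these 27573 genes, the fit found 46 of 100 genes set to change 4-fold, 16 of 100 set to change 2-fold, and 3 false ones. The simulated libraries varied independently, without the close Nynrin CKO pairs or the split by receptor reads. These counts thus cannot show how the fit behaves under that structure. Library sets were split at 300 CPM of receptor reads. Stem-loops came from GENCODE M21 transcripts and promoters from RefSeq (GRCm38.p6, 57 members matched).

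The members and lists were chosen with earlier results of these data known. Named were Nynrin and Slbp, each member that passed, the 3 most abundant per kilobase of each class, the 3 with the smallest p in each direction, and up to 4 per list (2 where none passed; the 4 most abundant variants too). Other scalings, filters, tests (DESeq2 1.42.0, limma-voom 3.58.1), a replicate block, library sets and removal of each library were tried; the newer quasi-likelihood form and the 90th percentile of receptor genes were added after seeing the data.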

Additional observations from a re-analysis of the deposited data

Results flagged for a closer look

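In 4 instances 1 of the 4 libraries of a group lay far from the other 3 by Dixon's ratio, where chance flags about 1 in 20 groups and 70 were looked at. H1f0 in control 3 was low, at 119.7 CPM, beside 173 to 178 CPM in the other controls. H2ac14 in control 1 was high, at 0.700 CPM, beside 0.399 to 0.439 CPM. Hist1h2bq in control 4 was high, at 16.1 CPM, beside 0.446 to 0.595 CPM. H3c6 in control 4 was high, at 34.3 CPM, beside 6.49 to 9.17 CPM.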

How the results depend on the processing

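The scarcer histone genes, with few counts in each library, have imprecise fold changes. No histone gene was called lower under any alternative, by edgeR, DESeq2 or limma. H1f0 kept a positive log2 fold change throughout, from 0.81 to 1.20. The number of members called higher, 1 in the reported fit, was 0 with RLE factors (H1f0 adjusted p = 0.0551), with a minimum of 10 counts in 2 libraries (0.0573) and with Nynrin CKO 1 and 2 and 3 and 4 each summed (0.437). It was 4 with DESeq2 and 2, H1f0 and Hist1h2bq, within the 5 libraries with more receptor reads. Leaving out 1 library at a time gave 0 to 1. Of the genes of the 4 lists, 8 were called higher in the reported fit. That number was 0 with RLE factors, without a filter, with the 10-count minimum and with summed libraries, 2 with upper-quartile factors, 1 with total counts, 18 with DESeq2, 22 with limma-voom, 19 with a term for library set and 13 with the newer quasi-likelihood form, and 0 to 17 on leaving out 1 library. None was called lower in the reported fit, against 3 with total counts, 3 with a minimum of 1 CPM, 2 with DESeq2, 2 with limma-voom, 1 with the library set term, 7 within the libraries with more receptor reads and 0 to 1 on leaving out 1 library. The number of all genes called higher varied too, from 611 in the reported fit. It was 13 with RLE factors, 33 without a filter, 17 with the 10-count minimum and 0 with summed libraries. It was 1493 with DESeq2, 1629 with limma-voom and 1221 with a term for library set. Without control 4 it was 1129, and without any other single library 1 to 6. The cause of these differences was not tested.

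Deviations of same-numbered libraries correlated from -0.20 to 0.33. Control 4 correlated at 0.32 and 0.33 with Nynrin CKO 3 and 4, and at -0.33 and -0.32 with 1 and 2. These values follow the split by receptor reads, so they cannot decide whether the numbers pair the libraries. A fit with the number as a replicate block called 0 of all 27573 genes, so 0 histone genes (H1f0 1.10, edgeR adjusted p = 0.0730) and 0 list genes. It turned Hist1h2bq to 0.89 and H2bc11 to -0.21.

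Log2 fold changes that turned sign belonged to genes that had not passed the test in the reported fit. With total counts they were -0.0746 for H1f5, -0.15 for H2bc11, -0.0917 for H3c15 and -0.22 for Hist1h4n. With limma-voom they were 1.53 for Hist1h2bq, -0.21 for H1f5, -0.55 for H2bc11, -0.15 for H3c15, 0.0775 for H4c4 and -0.18 for Hist1h4n. With the library set term they were 0.0162 for Hist1h2bq, -0.22 for H1f5, -0.74 for H2bc11, -0.17 for H3c15 and -0.46 for Hist1h4n. Within the libraries with more receptor reads they were 2.07 for Hist1h2bq, -0.65 for H1f5, -0.0137 for Hist1h2ap, -0.0205 for H2ac8, -1.26 for H2bc11, -0.52 for H3c15, 0.0879 for H4c4, -0.68 for Hist1h4n, -0.0413 for Macroh2a1 and -1.06 for H2ac13. Of these, Hist1h2bq passed the test in that setting (edgeR adjusted p = 0.0299), where 6.69% of all genes were called. On leaving out 1 library at a time the log2 fold changes that turned sign ranged from -1.73 to 1.84 for Hist1h2bq, from -0.37 to 0.51 for H1f2, from -0.0857 to 0.54 for H1f5, from -0.41 to 0.35 for H2bc8, from -0.31 to 0.70 for H2bc11, from -0.0602 to 0.48 for H3c15, from -0.57 to 0.71 for H3c6, from -0.68 to 0.29 for H4c4, from -0.20 to 0.61 for Hist1h4n and from -1.64 to 0.22 for H2ac18.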
